A study of Mus musculus with 2 samples.

Results

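Cxcl1, Cxcl2, Cxcl3, Cxcl5 and Ppbp encode the mouse chemokines that draw neutrophils, and Pf4 encodes their neighbour platelet factor 4. These 6 genes were taken by symbol, each from 1 of the 32285 gene rows of the count tables, and were followed through cells of a fibrosarcoma that had been passed over a magnetic column. Per the labels, the tumours were syngeneic and subcutaneous, and their hosts were C57BL/6 mice labelled WT, in both fractions. Cells held by the column formed the iron-positive fraction (the enriched eluate), and cells that ran through it formed the iron-negative fraction (the flowthrough). Each fraction gave 1 droplet-based single-cell library that counts unique molecular identifiers (UMIs) at the 3′ end of transcripts. The recorded time and temperature of digestion are the same for both libraries, and whether digestion changed the levels was not tested. The age, sex and number of the mice are not given in the sources used here, and neither fraction has a replicate. Every difference below is therefore between 2 libraries, carries no p-value, and has an exact 95% interval that covers counting error only. No measure of iron was among the files.

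CXC chemokines are small secreted proteins that guide leukocytes along gradients. In the mouse, Cxcl1, Cxcl2, Cxcl3, Cxcl5 and the product cut from the Ppbp protein carry an ELR motif before their cysteines and signal through Cxcr2, the receptor that draws neutrophils out of the blood. The genes of Cxcl1, Cxcl2, Cxcl3 and Cxcl5 are known targets of NF-kB, switched on in macrophages, fibroblasts and vessel cells by interleukin-1, tumour necrosis factor and microbial products. Pf4 lacks the ELR motif, binds heparin and heparan sulphate, and is best known from platelet granules, although tissue macrophages transcribe it too.

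All 6 genes lie on chromosome 5, on the plus strand, within 146579 bases of the mm10 build (GENCODE annotation). In order they are Cxcl5 (90759360 to 90761624), Ppbp (90768518 to 90770063), Pf4 (90772435 to 90773383), Cxcl3 (90786103 to 90789600), Cxcl1 (90891241 to 90893115) and Cxcl2 (90903871 to 90905938). The span holds 7 protein-coding genes, and the only one outside the group, Cxcl15, had 0 UMIs in the phagocytes of both libraries. The coding transcripts of Cxcl2 and Cxcl3 share an exact run of 110 bases, but at most 16 bases within their last 500, the stretch that 3′ counting reads. Among the other pairs the longest exact run was 23 bases. Whether reads from the shared stretches were split between genes was not tested.

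The stretches just upstream of the genes are shown because an NF-kB motif stands in those of Cxcl1, Cxcl2 and Cxcl3 and was not found in those of Ppbp and Pf4. Each runs 5′ to 3′ on the plus strand, from 150 bases before to 20 bases after the RefSeq start (GRCm38.p6, which is mm10), and RefSeq entries were matched by symbol for 5 of the 6 members. Capitals mark the NF-kB motif GGAATTTCC and the TATA-like motif ATAAAA where they occur on the printed strand.
Cxcl1 (chr5:90891095-90891264): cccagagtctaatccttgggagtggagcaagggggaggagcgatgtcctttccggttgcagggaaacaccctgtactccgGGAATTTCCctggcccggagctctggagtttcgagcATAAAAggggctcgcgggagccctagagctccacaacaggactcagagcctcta
Cxcl2 (chr5:90903749-90903918): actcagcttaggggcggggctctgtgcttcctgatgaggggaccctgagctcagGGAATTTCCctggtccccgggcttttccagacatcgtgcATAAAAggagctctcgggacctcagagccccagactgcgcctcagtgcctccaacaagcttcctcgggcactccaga
Cxcl3 (chr5:90785951-90786120): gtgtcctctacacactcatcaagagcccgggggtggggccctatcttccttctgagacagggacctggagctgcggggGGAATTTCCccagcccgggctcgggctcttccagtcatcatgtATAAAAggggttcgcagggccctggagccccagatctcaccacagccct
Ppbp (chr5:90768368-90768537): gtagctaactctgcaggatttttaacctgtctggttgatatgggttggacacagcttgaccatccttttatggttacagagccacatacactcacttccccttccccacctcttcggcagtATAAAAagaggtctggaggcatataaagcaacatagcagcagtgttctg
Pf4 (chr5:90772285-90772454): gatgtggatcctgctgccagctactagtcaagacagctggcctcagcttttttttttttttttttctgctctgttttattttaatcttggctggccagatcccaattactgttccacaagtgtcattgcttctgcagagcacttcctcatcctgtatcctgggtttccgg

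GGAATTTCC was searched on both strands in the 300-base window that ends 50 bases after the start. It occurred in Cxcl1, Cxcl2 and Cxcl3, beginning 70, 96 and 72 bases upstream of the RefSeq start. For Cxcl2 that start lies downstream of the GENCODE start given above, so its distances depend on the annotation. The motif occurred in 104 of 32851 promoters of the same length (0.317%), and not in the windows of Ppbp or Pf4. A wider form, spelled GGG, any 2 bases and TTTCC, overlaps it in those 3 genes and has a further match in Cxcl1 (89 bases upstream, minus strand) and in Cxcl2 (78 bases upstream), and 1.63% of promoters hold it. The hypoxia response core ACGTG was found in Cxcl1, Cxcl3, Ppbp and Pf4 and in 19.6% of promoters. ATAAAA was found in all 5 windows and in 18.5% of promoters. The AP-1 motif TGANTCA occurred in Ppbp (7.81% of promoters), the GATA motif AGATAA in Pf4 (11.2%), and the antioxidant response motif TGACNNNGC in none of the 5 (12.4%). The ACGTG matches of Ppbp and Pf4, and the AGATAA and plus-strand ATAAAA matches of Pf4, lay after the start. All of these are letter matches and show no binding.

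**Figure D1:**
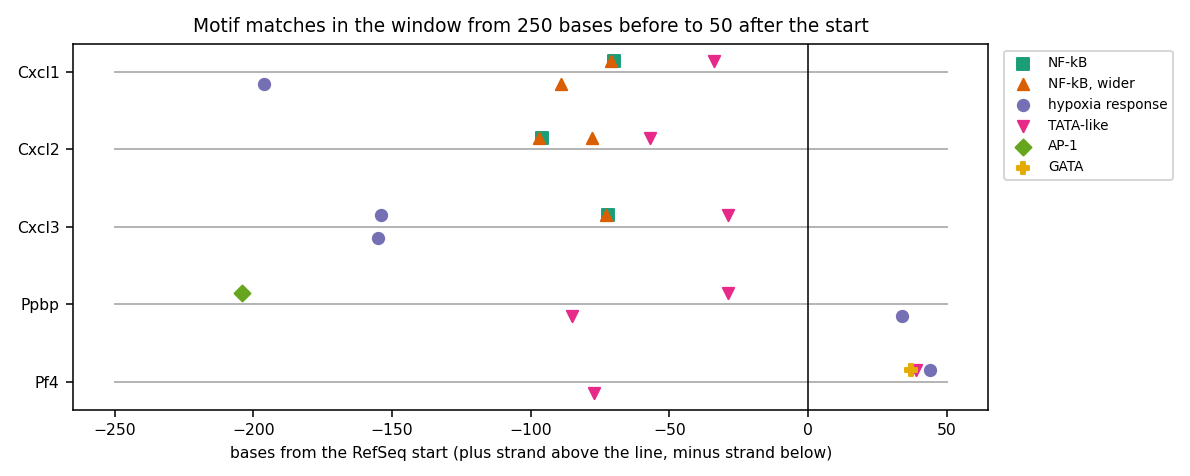
Motif matches around the starts of 5 of the genes. The horizontal axis gives the bases from the RefSeq start (0) and each line is a gene, with plus-strand matches drawn above the line and minus-strand matches below it. The NF-kB squares sit 70, 96 and 72 bases upstream in Cxcl1, Cxcl2 and Cxcl3 and are missing from Ppbp and Pf4.

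There were 13668 barcodes with 129921053 UMIs from the iron-positive fraction, and 10124 barcodes with 132796517 UMIs from the iron-negative fraction. Barcodes with at least 200 genes and at most 15% mitochondrial UMIs were kept, 12143 iron-positive cells (median 7349 UMIs) and 9403 iron-negative cells (median 13017 UMIs). The libraries shared 85 barcode sequences. Cells were gated from marker lists that contain no member. Phagocytes (monocytes and macrophages) numbered 9036 in the iron-positive library (74.4% of kept cells, median 8989.5 UMIs) and 8963 in the iron-negative library (95.3%, median 13305 UMIs), and all 10 of their markers were at 10 CPM or more in both, where CPM is the counts of a gene per 1000000 UMIs of the gate. The other gates were mesenchymal-like cells, a gate that may take fibroblasts as well as tumour cells (353 and 80 cells), endothelial-like cells (745 and 20), pericyte-like cells (33 and 0), T or NK-like cells (49 and 21) and neutrophil-like cells (45 and 10). Cells that fitted several lists (375 and 40) or too few markers (1473 and 267) were set apart, and the column can set all of these numbers.

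The first question was which cells held the chemokine transcripts. Cxcl1 came mainly from stromal cells. In the iron-positive library the mesenchymal-like cells were 2.91% of kept cells and held 45.5% of the Cxcl1 UMIs, and in the iron-negative library they were 0.851% of cells and held 71.0%. Endothelial-like cells held 13.8% of it in the iron-positive and 0.652% in the iron-negative library, and phagocytes held 10.98% and 20.4%. Cxcl5, known in mice as a chemokine of epithelial and stromal cells, was divided between mesenchymal-like cells (42.3% in the iron-positive and 32.9% in the iron-negative library) and phagocytes (29.8% and 66.3%). Phagocytes held most UMIs of Cxcl2 (77.2% and 92.1%), Cxcl3 (84.1% and 91.6%), Ppbp (93.4% and 97.4%) and Pf4 (95.2% and 99.3%). Cells that fitted several lists held 26.0% of the iron-positive Cxcl1 UMIs and 7.27% of the iron-negative ones, and their makeup was not tested.

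**Figure D2:**
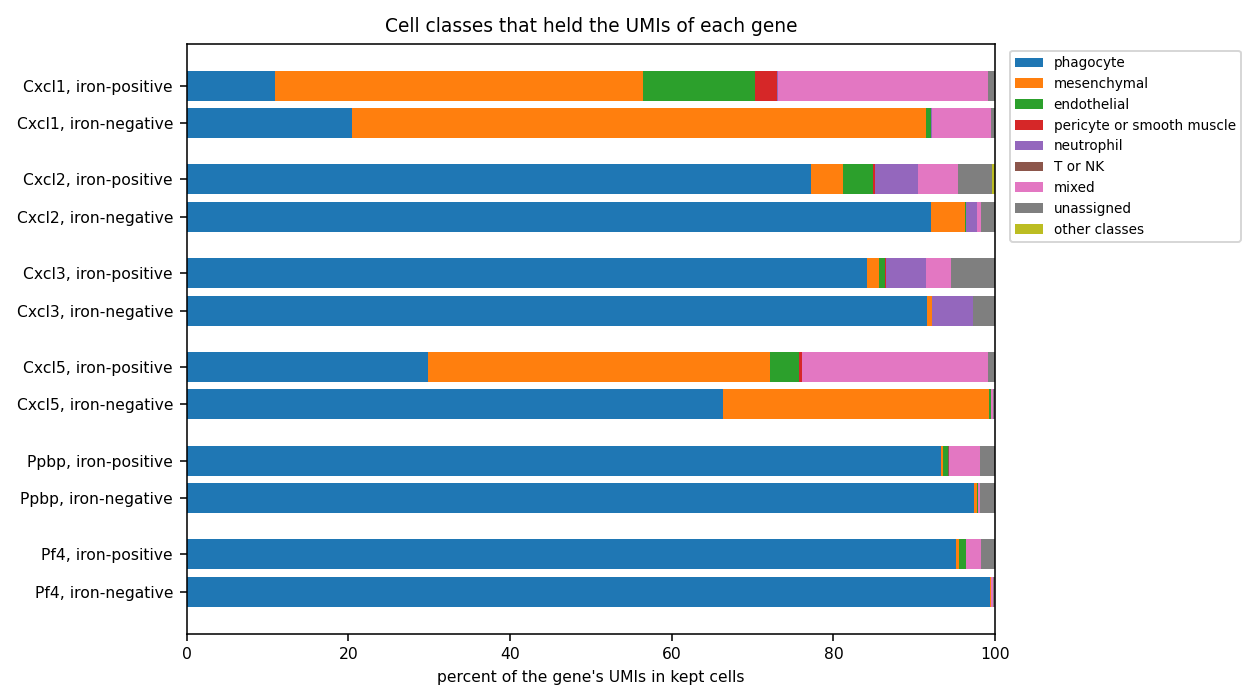
Share of each gene's UMIs by cell class, in percent of the UMIs in kept cells, with the iron-positive library above the iron-negative one for each gene. Mesenchymal-like cells hold 45.5% and 71.0% of the Cxcl1 UMIs, whereas phagocytes hold 95.2% and 99.3% of the Pf4 UMIs.

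Neutrophil-like cells, the targets of these chemokines, were few but rich in Cxcl2 and Cxcl3. Cxcl2 had 4753 UMIs in the 45 iron-positive neutrophil-like cells (48668 CPM, 47294 to 50072) and 797 in the 10 iron-negative ones (28149 CPM, 26228 to 30173), with at least 1 UMI in 100% of both sets. Cxcl3 stood at 5069 CPM (4632 to 5535) against 4450 CPM (3707 to 5298), intervals that overlap. The gate held 0.371% of iron-positive and 0.106% of iron-negative cells, yet 5.24% and 1.36% of the Cxcl2 UMIs. Cxcl5 had 0 UMIs there in either library, out of 97661 and 28314 UMIs. These cells were shallow, with a median of 2088 UMIs in the iron-positive and 2597.5 in the iron-negative library.

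Cxcr2, the receptor of the ELR chemokines, had 788 CPM in iron-positive and 1519 CPM in iron-negative neutrophil-like cells, with a UMI in 62.2% and 70.0% of them (Cxcr2 is also 1 of the 10 markers of that gate). In phagocytes Cxcr2 stood at 0.330 CPM in the iron-positive and 0.281 CPM in the iron-negative library. Ackr1, the decoy receptor of venular endothelium that binds many of these ligands, had 180 UMIs in 29 of the 745 iron-positive endothelial-like cells (11.7 CPM) and 1 UMI in the 20 iron-negative ones. Cxcr3, a receptor proposed for Pf4, was at 50.3 CPM in iron-positive and 34.1 CPM in iron-negative T or NK-like cells, from 12 and 6 UMIs. Phagocytes held 171 Cxcr3 UMIs (1.88 CPM) in the iron-positive and 274 (2.20 CPM) in the iron-negative library. None of the 4 receptors listed (Cxcr1, Cxcr2, Cxcr3, Ackr1) reached 10 CPM in phagocytes.

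Between the fractions, the phagocyte totals of the members were higher in the iron-positive library. Ppbp, the precursor that is cut to the neutrophil-activating peptide CXCL7, stood at 39.2 CPM in iron-positive against 7.20 CPM in iron-negative phagocytes, 5.45-fold higher (5.06 to 5.87). Cxcl3 was 5.06-fold higher (4.83 to 5.30), with 92.7 against 18.3 CPM. Cxcl1 was 3.12-fold higher (2.90 to 3.35), with 27.4 against 8.79 CPM. Pf4 was 1.91-fold higher (1.90 to 1.92), with 2768 against 1449 CPM, and Cxcl2 1.78-fold higher (1.76 to 1.80), with 769 against 431 CPM. Cxcl5 stayed below 10 CPM in both, with 6.76 against 3.42 CPM (ratio 1.97, 1.74 to 2.24). All 5 members at 10 CPM or more were at least 1.5-fold higher, where 2.38% of the 7718 genes at that level were and 0.713% were as much lower. The median log2 ratio was 1.64 over the 5 members and -0.11 over all 7718 genes. The order of the counting intervals puts Ppbp and Cxcl3, whose intervals overlap, above Cxcl1, and Cxcl1 above Pf4 and Cxcl2.

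Over all kept cells, where cell makeup enters as well, the ratios were 4.42 (4.29 to 4.55) for Cxcl1, 4.33 (4.03 to 4.66) for Ppbp, 4.20 (4.02 to 4.39) for Cxcl3, 3.34 (3.06 to 3.66) for Cxcl5, 1.62 (1.60 to 1.64) for Cxcl2 and 1.52 (1.51 to 1.53) for Pf4. In that comparison 9.29% of 8241 genes were at least 1.5-fold higher and 3.98% at least 1.5-fold lower. Cxcl1 and Cxcl5 therefore differed more over all cells than within phagocytes, whereas Ppbp, Cxcl3, Pf4 and Cxcl2 differed less.

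Among the members at 10 CPM or more in phagocytes, Cxcl1 lay closest to the level that RNA free in the droplets could give. If free RNA made up 10% of a cell's UMIs, it would give 17.6 CPM of Cxcl1 in each iron-positive cell and 4.08 CPM in each iron-negative cell, against phagocyte levels of 27.4 and 8.79 CPM. T or NK-like cells, which should lack these genes, had 0 Cxcl1 UMIs of 238792 in the iron-positive library, which allows up to 12.6 CPM, and 0 of 175946 in the iron-negative library (up to 17.1 CPM). Their Pf4 level was 201 CPM (48 UMIs) in the iron-positive and 39.8 CPM (7 UMIs) in the iron-negative library, which is 9.72% (7.17 to 12.9) and 2.89% (1.16 to 5.96) of the whole library's level. Pf4 was detected in 59.2% of iron-positive T or NK-like cells (median 4000 UMIs) and in 90.9% of phagocytes. In the iron-negative library these shares were 28.6% (median 7277 UMIs) and 91.99%. With each cell thinned to 1000 UMIs, the shares were 22.4% against 62.2% in the iron-positive and 0% against 53.1% in the iron-negative library. With the free RNA share that Pf4 gives subtracted in each library, the Cxcl1 log2 ratio of phagocytes was 0.53, which is below 1.5-fold, against 1.64 without it. That subtraction takes 17.2 CPM of Cxcl1 from the iron-positive library, above the limits of 12.6 and 15.4 CPM from its T or NK-like cells. The part of free RNA in the Cxcl1 ratio was not tested.

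The transcripts of several members sat in few phagocytes. The top 1% of phagocytes held 71.6% of the Ppbp UMIs in the iron-positive library and 82.0% in the iron-negative library. For Cxcl5 the shares were 87.3% and 84.8%, for Cxcl3 40.1% and 62.4%, and for Cxcl1 38.6% and 52.3%. Cxcl2 (17.3% and 18.0%) and Pf4 (13.6% and 12.5%) were spread more widely. Ppbp reached 10 UMIs or more in 92 iron-positive phagocytes (1.02%) and 25 iron-negative ones (0.279%), and Cxcl3 in 261 (2.89%) and 61 (0.681%). Pf4 did so in 45.2% and 46.1%. The single richest phagocyte held 195 Ppbp UMIs of 3569 in the iron-positive and 53 of 898 in the iron-negative library.

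Phagocytes with Ppbp, Cxcl3 or Cxcl5 held the other 2 of these genes more often than phagocytes without them. With each phagocyte thinned to 5000 UMIs (6318 iron-positive and 7772 iron-negative cells), Cxcl3 was detected in 40.3% (34.7 to 46.1) of iron-positive cells with Ppbp and 10.1% (9.35 to 10.9) of those without it. The iron-negative shares were 21.8% (14.9 to 30.1) and 3.52% (3.12 to 3.95). Cxcl2 was detected in 87.4% of iron-positive cells with Cxcl3 against 56.1% without it, and in 78.7% against 44.2% in the iron-negative library. Ppbp was detected in 36.9% (26.6 to 48.1) of the 84 iron-positive cells with Cxcl5 against 4.32% of the others, and in 17.9% (8.91 to 30.4) of the 56 iron-negative cells with Cxcl5 against 1.48%. For Cxcl1 the contrast with Ppbp was smaller, since Ppbp was detected in 7.32% (5.25 to 9.87) of iron-positive cells with Cxcl1 against 4.51% (3.99 to 5.08) without it, and in 2.27% (0.742 to 5.22) against 1.58% (1.31 to 1.88) of iron-negative cells. Genes of 1 cell share its state, so these shares describe the cells and test no link.

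Markers of other cells were measured in the same phagocytes. The 10 platelet and megakaryocyte markers summed to 2.14 CPM in iron-positive and 1.23 CPM in iron-negative phagocytes, with 3 of the 10 at 0 in each, and to 2.22 against 1.46 CPM in the phagocytes with a Ppbp UMI. The 10 neutrophil markers summed to 98.0 CPM in iron-positive and 48.5 CPM in iron-negative phagocytes, with 2 of the 10 at 0 in each. In iron-positive phagocytes with 10 or more Cxcl3 UMIs they reached 470 CPM, of which Mmp8, a collagenase, gave 297 CPM and S100a8, a calcium-binding alarmin, 137 CPM, against 73.8 CPM in those with no Cxcl3. Of the other neutrophil markers, S100a9 stood at 18.5 CPM in those 261 cells, against 0.992 CPM in iron-positive phagocytes with no Cxcl3. Csf3r stood at 17.1 against 39.2 CPM and Cxcr2 at 0 against 0.300 CPM, and Ly6g was at 0 in both. In the iron-negative library the neutrophil list stood at 92.8 CPM with 10 or more Cxcl3 UMIs and at 46.2 CPM with none. The part of other cells in the members' levels was not tested beyond these values.

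The phagocytes were next split into 13 states by their leading markers, with the remainder left as no leading state. Cxcl3 was highest in the state of the macrophage elastase Mmp12 and the scavenger receptor Cd36, with 323 CPM (313 to 333) in the iron-positive and 221 CPM (187 to 259) in the iron-negative library. The Nos2 state, named for inducible nitric oxide synthase, followed with 254 against 110 CPM, and the Mmp9-Arg1 state with 190.5 against 77.5 CPM. The lowest level was in the MHC class II state, with 3.07 CPM (1.82 to 4.86) in the iron-positive and 2.33 CPM (1.64 to 3.21) in the iron-negative library. The levels of the highest and lowest states were farther apart than those of the fractions in any of these states.

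Ppbp had a similar order. In the iron-positive library it stood at 141 CPM (134 to 148) in the Mmp12-Cd36 state and at 135 CPM (126 to 143) in the Mmp9-Arg1 state, whose intervals overlap. In the iron-negative library these states had 81.9 CPM (61.9 to 106) and 36.4 CPM (31.8 to 41.5). The cycling state (1.32 CPM) and the MHC class II state (1.37 CPM) were lowest among iron-positive phagocytes, and the interferon gamma-like state among iron-negative ones, at 0.282 CPM from 3 UMIs.

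Pf4 was highest in the Mmp9-Arg1 state of the iron-positive library, at 6802 CPM (6742 to 6862), and next in the Mmp12-Cd36 state, at 5973 CPM (5931 to 6016). In the iron-negative library the Mmp12-Cd36 state led with 4968 CPM (4802 to 5138), before the Mmp9-Arg1 state with 4339 CPM (4287 to 4391). The MHC class II state was lowest, at 513 and 487 CPM. In mesenchymal-like cells Pf4 stood at 132 CPM in the iron-positive and 65.1 CPM in the iron-negative library, below the 207 and 137 CPM that 10% of free RNA would give.

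Cxcl2 had its highest phagocyte level in the Ly6c2-Plac8 state, which carries genes of young monocytes, at 1690 CPM (1645 to 1737) in the iron-positive library. The Nos2 state had 1452 and the Mmp12-Cd36 state 1369 CPM there. In the iron-negative library the Mmp12-Cd36, Nos2 and Ly6c2-Plac8 states had 1182, 1134 and 1122 CPM, with intervals that overlap between neighbours. The lowest level was that of the Fcrls-Cx3cr1 state in both, 185 CPM in the iron-positive and 168 CPM in the iron-negative library.

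Cxcl1 was highest in stroma, in both libraries. Cxcl1 had 1453 CPM (1425 to 1481) in iron-positive and 1028 CPM (995 to 1061) in iron-negative mesenchymal-like cells, in 74.5% and 71.2% of cells, and 2341 CPM (2161 to 2532) in the 33 iron-positive pericyte-like cells. Endothelial-like cells had 204 and 83.4 CPM. Among phagocytes its highest state was Mmp12-Cd36 in both, with 62.2 CPM (57.9 to 66.7) and 38.0 CPM (24.9 to 55.7). The iron-negative level there rests on 26 UMIs in 11 cells, and its interval overlaps that of the Cd209f-Cd163-Lyve1 state (24.95 CPM, 17.7 to 34.1). Cxcl5 had 123 CPM (115 to 131) in iron-positive and 57.2 CPM (49.8 to 65.5) in iron-negative mesenchymal-like cells, where 94 of 873 and 50 of 212 UMIs lay in 1 cell. Its highest phagocyte level in the iron-positive library was 21.1 CPM (17.9 to 24.7), in the Mmp9-Arg1 state, whose interval overlaps those of the Nos2 state (19.9 CPM) and the Mmp12-Cd36 state (19.0 CPM). In the iron-negative library the Mmp12-Cd36 state had 64.4 CPM (46.8 to 86.4) and the Nos2 state 30.7 CPM (25.7 to 36.4). There, 37 of 44 and 44 of 131 UMIs of these states lay in 1 cell. In the iron-positive library 1 cell held 20 of 155 UMIs in Mmp9-Arg1, 46 of 90 in Nos2 and 48 of 239 in Mmp12-Cd36. The counting intervals do not cover such single cells, so the order of these states is uncertain.

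The mesenchymal-like cells were split by their UMIs of Sox9 and Grem1 against those of Dcn, Lum and Pdgfra. Cells with more of the former made the Sox9-Grem1 set (65 and 29 cells). The other cells with UMIs of Dcn, Lum or Pdgfra made the set named collagen-high (215 and 44 cells). No collagen gene entered this split, and the collagen levels of the sets were not compared. Cxcl5 stood at 199 CPM (186 to 213) in the collagen-high set and 1.73 CPM (0.472 to 4.44) in the Sox9-Grem1 set of the iron-positive library, and at 65.0 CPM (53.8 to 77.9) and 50.2 CPM (40.6 to 61.3) in those of the iron-negative library. Of the 95 iron-negative Sox9-Grem1 UMIs of Cxcl5, 50 came from 1 cell. Cxcl1 stood at 1376 CPM in the collagen-high and 1181 CPM in the Sox9-Grem1 set of the iron-positive library, and at 928 and 1129 CPM in those of the iron-negative library. In the 73 iron-positive cells that fitted neither set (median 1776 UMIs) Cxcl1 had 3107 CPM, and the 7 such iron-negative cells held 0 Cxcl1 UMIs of 11282. Between the fractions, mesenchymal-like cells had 1.41-fold (1.36 to 1.47) more Cxcl1 and 2.15-fold (1.85 to 2.51) more Cxcl5 in the iron-positive library, while the Cxcl2 ratio was 0.768 (0.730 to 0.809). In this comparison 12.8% of 8353 genes were at least 1.5-fold higher and 12.2% at least 1.5-fold lower, so ratios of that size were common there. The pericyte list summed to 2141 CPM in the iron-positive and 328 CPM in the iron-negative mesenchymal-like cells, and its part in the Cxcl1 ratio was not tested.

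**Figure D3:**
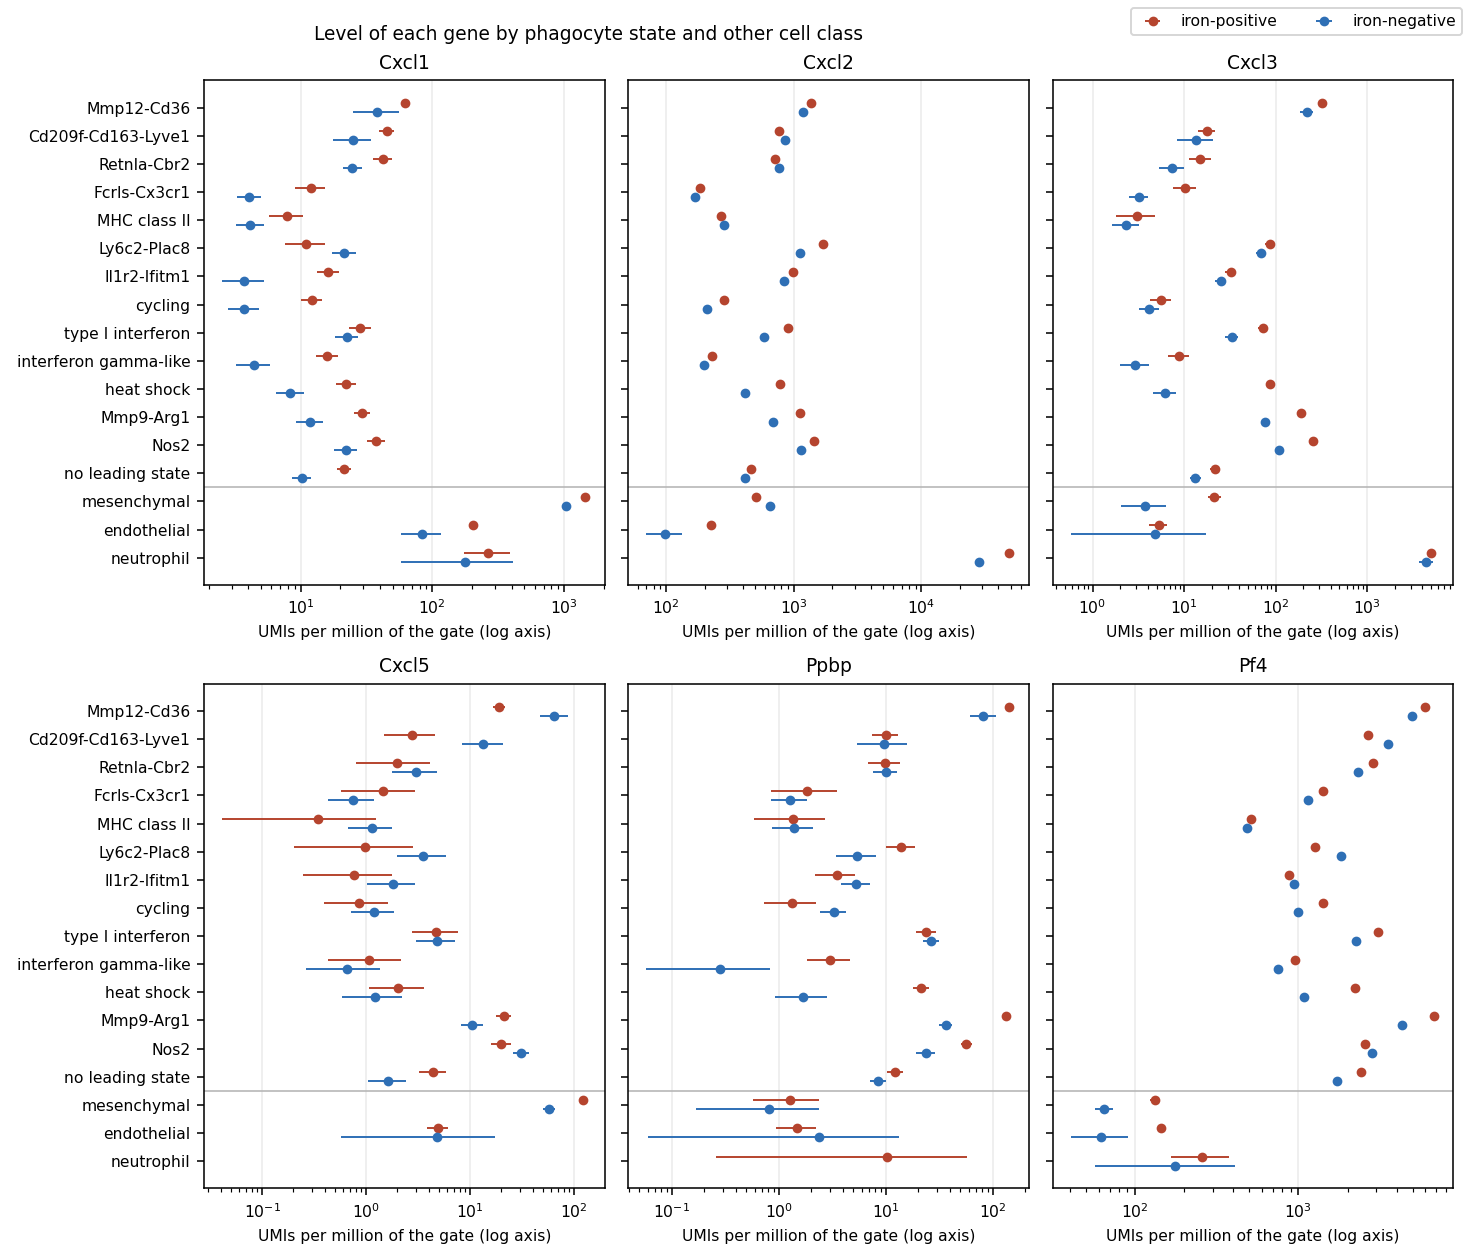
Level of each gene, in CPM on a log axis, by phagocyte state (above the line) and other class (below it), with exact 95% counting intervals. Iron-positive points are drawn above iron-negative points, and a gate at 0 UMIs has no point. Cxcl3 runs between 3.07 CPM in the MHC class II state and 323 CPM in the Mmp12-Cd36 state of the iron-positive library, and neutrophils stand above all states for Cxcl2 and Cxcl3.

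The fractions differed in which states they held. The Mmp12-Cd36 state, high in Cxcl3, Ppbp and Pf4, made up 13.0% of iron-positive phagocytes (1173 cells) and 0.647% of iron-negative ones (58 cells). Without that state the phagocyte log2 ratios were 1.34 for Cxcl1, 0.65 for Cxcl2, 1.69 for Cxcl3, 1.75 for Ppbp and 0.66 for Pf4, against 1.64, 0.83, 2.34, 2.44 and 0.93 with it. With 14 groups of phagocytes (13 states and the remainder) weighted equally in both libraries, they were 0.83, 0.34, 0.94, 1.014 and 0.27, and 3 of the 5 members stayed at least 1.5-fold higher. Cxcl2 and Pf4 were not among the 3. Cxcl5 had log2 ratios of 0.63 without the Mmp12-Cd36 state and -0.77 with the groups weighted equally, against 0.98 over all phagocytes.

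Within states the median ratio of each member was smaller than its ratio over all phagocytes, at 1.995 for Cxcl1, 1.17 for Cxcl2, 1.84 for Cxcl3, 0.685 for Cxcl5, 1.45 for Ppbp and 1.23 for Pf4. Cxcl3 ran between 1.25 (1.05 to 1.48) in the Ly6c2-Plac8 state and 14.2 (10.6 to 19.3) in the heat shock state, where it stood at 87.8 CPM in the iron-positive and 6.18 CPM in the iron-negative library. Cxcl2 ran between 0.8995 (0.845 to 0.958) in the Cd209f-Cd163-Lyve1 state and 1.86 (1.78 to 1.94) in the heat shock state. Pf4 ran between 0.6998 (0.673 to 0.727) in the Ly6c2-Plac8 state and 2.05 (1.996 to 2.11) in the heat shock state. The heat shock state thus had the highest ratio of Cxcl2, Cxcl3, Ppbp and Pf4, and its Ppbp ratio was 12.7 (7.32 to 24.0). Few of its cells held these UMIs. Cxcl3 was detected in 60 of 547 iron-positive and 22 of 559 iron-negative cells, and Ppbp in 37 and 10. Without the richest cell of each library the Cxcl3 ratio was 15.1 (10.9 to 21.5) and the Ppbp ratio 11.8 (6.28 to 24.4). Of the 14 groups, Cxcl1 was at least 1.5-fold higher in 12, Cxcl3 in 8, Ppbp in 6, Cxcl5 in 5, Cxcl2 in 4 and Pf4 in 2. At least 1.5-fold lower were Cxcl5 in 7, Ppbp in 2 and Cxcl1 in 1. Of all genes at 10 CPM or more, the shares at least 1.5-fold higher were 6.74% in Mmp12-Cd36, 5.28% in Cd209f-Cd163-Lyve1, 2.8% in Retnla-Cbr2, 0.478% in Fcrls-Cx3cr1, 0.459% in MHC class II, 2.56% in Ly6c2-Plac8, 0.765% in Il1r2-Ifitm1, 0.718% in cycling, 3.46% in type I interferon, 0.936% in interferon gamma-like, 2.99% in heat shock, 2.21% in Mmp9-Arg1, 2.85% in Nos2 and 1.5% in the remainder. Of all genes at 10 CPM or more, the shares at least 1.5-fold lower were 10.4% in Mmp12-Cd36, 9.12% in Cd209f-Cd163-Lyve1, 3.25% in Retnla-Cbr2, 0.362% in Fcrls-Cx3cr1, 0.553% in MHC class II, 3.77% in Ly6c2-Plac8, 0.684% in Il1r2-Ifitm1, 0.315% in cycling, 3.54% in type I interferon, 0.527% in interferon gamma-like, 1.6% in heat shock, 4.49% in Mmp9-Arg1, 4.73% in Nos2 and 0.525% in the remainder. The counts for Cxcl1, Cxcl3, Cxcl5 and Ppbp include groups where the gene lay below 10 CPM. The higher groups of Cxcl1 include some whose iron-positive level lay below the 17.6 CPM that 10% of free RNA would give. They were Il1r2-Ifitm1 (16.2 CPM), interferon gamma-like (15.9 CPM), cycling (12.1 CPM), Fcrls-Cx3cr1 (11.9 CPM) and MHC class II (7.85 CPM).

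In the Mmp12-Cd36 state itself the Cxcl3 ratio was 1.46 (1.24 to 1.73), that of Ppbp 1.72 (1.32 to 2.29), that of Pf4 1.20 (1.16 to 1.24), and that of Cxcl2 1.16 (1.08 to 1.24). The Cxcl5 ratio was 0.295 (0.213 to 0.416), but 37 of the 44 iron-negative UMIs lay in 1 cell, and without the richest cell of each library it was 1.47 (0.701 to 3.71). In the Mmp9-Arg1 state every member was higher, Ppbp 3.70-fold (3.20 to 4.29), Cxcl1 2.49-fold, Cxcl3 2.46-fold, Cxcl5 2.01-fold, Cxcl2 1.64-fold and Pf4 1.57-fold. In that state 2.21% of genes were at least 1.5-fold higher and 4.49% at least 1.5-fold lower.

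**Figure D4:**
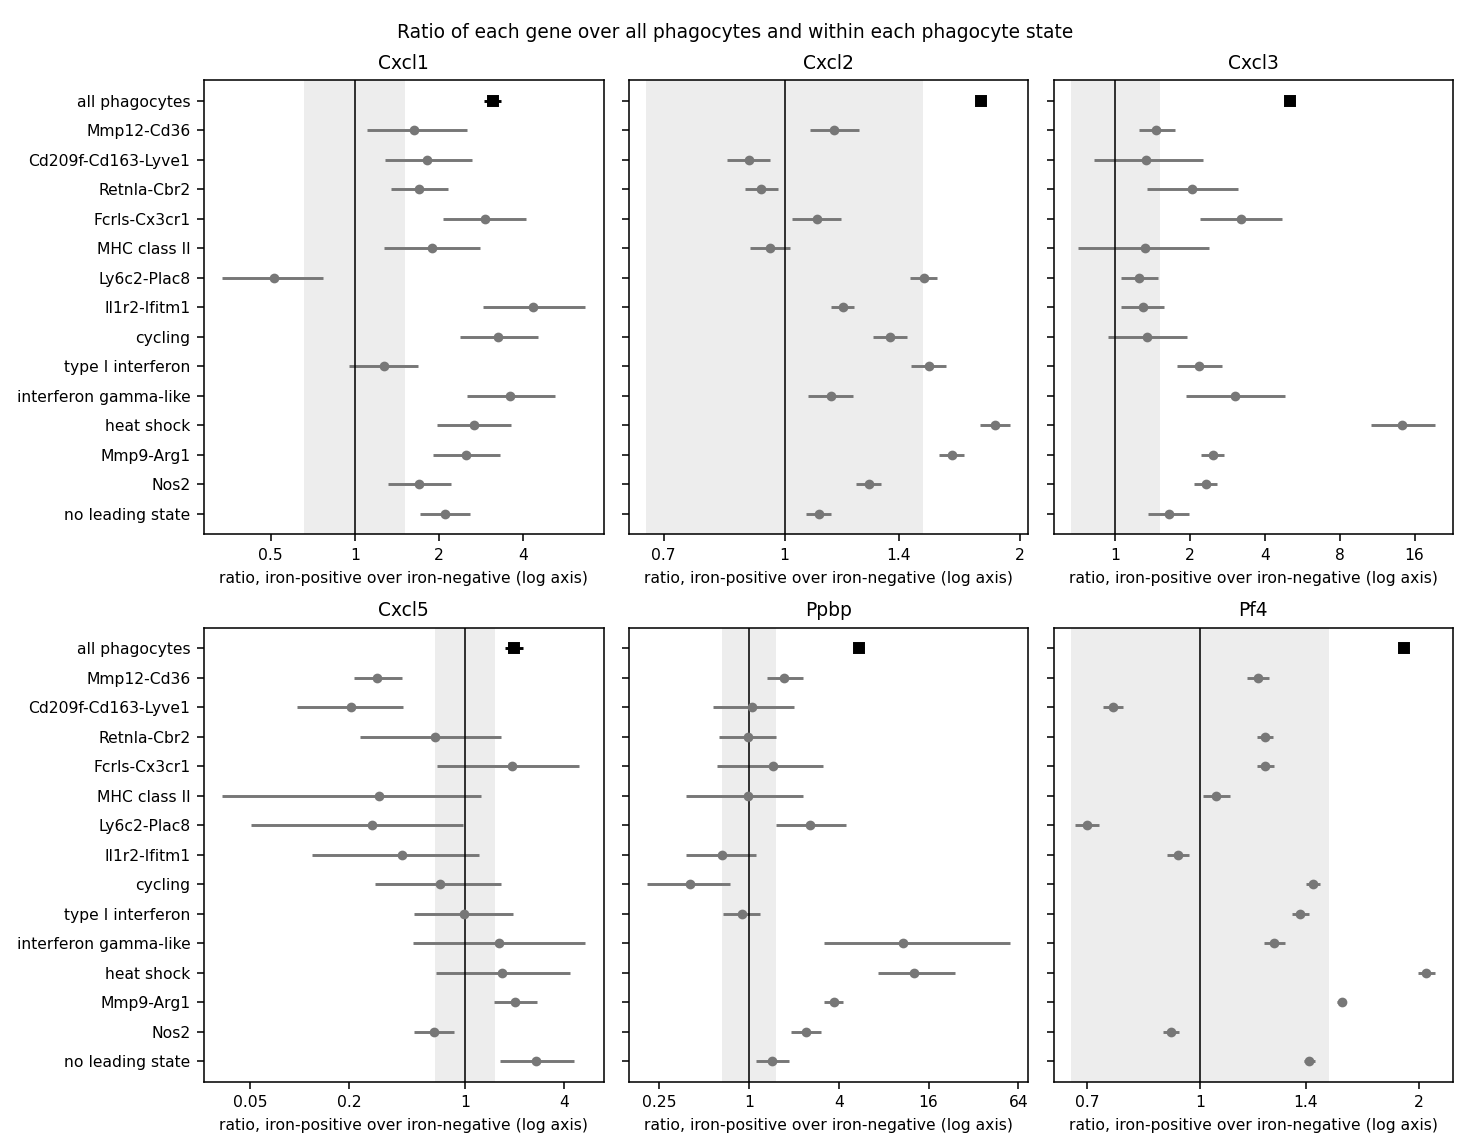
Ratio of iron-positive over iron-negative CPM for each gene, on a log axis, over all phagocytes (black squares) and within 13 states and the remainder (grey points), with exact 95% counting intervals. The grey band spans ratios within 1.5-fold. The Cxcl3 square stands at 5.06 and 11 of its 14 grey points stand below 3, whereas the heat shock point stands at 14.2.

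Phagocytes were also binned by their UMIs of the 5 genes of the Mmp12-Cd36 list (Mmp12, Cd36, Gpnmb, Slpi and Gclm) per 10000 UMIs, in bins set after values were seen. Cxcl3 stood at 16.1, 97.4, 277 and 497 CPM in iron-positive cells with under 5, 5 to 15, 15 to 45, and 45 or more, and at 11.5, 97.9, 270.1 and 226 CPM in iron-negative ones. Its ratio was 0.995 (0.895 to 1.11) and 1.03 (0.922 to 1.14) in the middle bins, 1.397 (1.29 to 1.52) in the lowest and 2.20 (1.76 to 2.79) in the highest, which held 645 iron-positive and 31 iron-negative cells. The lowest bin held 64.3% of iron-positive and 93.8% of iron-negative phagocytes. Pf4 ratios were 1.21, 1.24, 1.58 and 0.958 in the same order, and Cxcl2 ratios 1.27, 1.06, 0.790 and 1.21. Ppbp ratios were 1.46, 1.16 and 1.78 in the first 3 bins, and in the highest bin it had 999 UMIs in the iron-positive and 2 in the iron-negative library. In every bin the Cxcl3 ratio was below the 5.06 of all phagocytes, whereas the Ppbp ratio of the highest bin was 26.9 (7.42 to 222). In the order of the bins, Cxcl1 ratios were 2.37, 0.942, 1.53 and 0.938. Cxcl5 ratios were 0.847, 0.793, 0.347 and 3.63, the last with an interval of 0.987 to 30.3. The part of the list in these ratios was not tested.

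**Figure D5:**
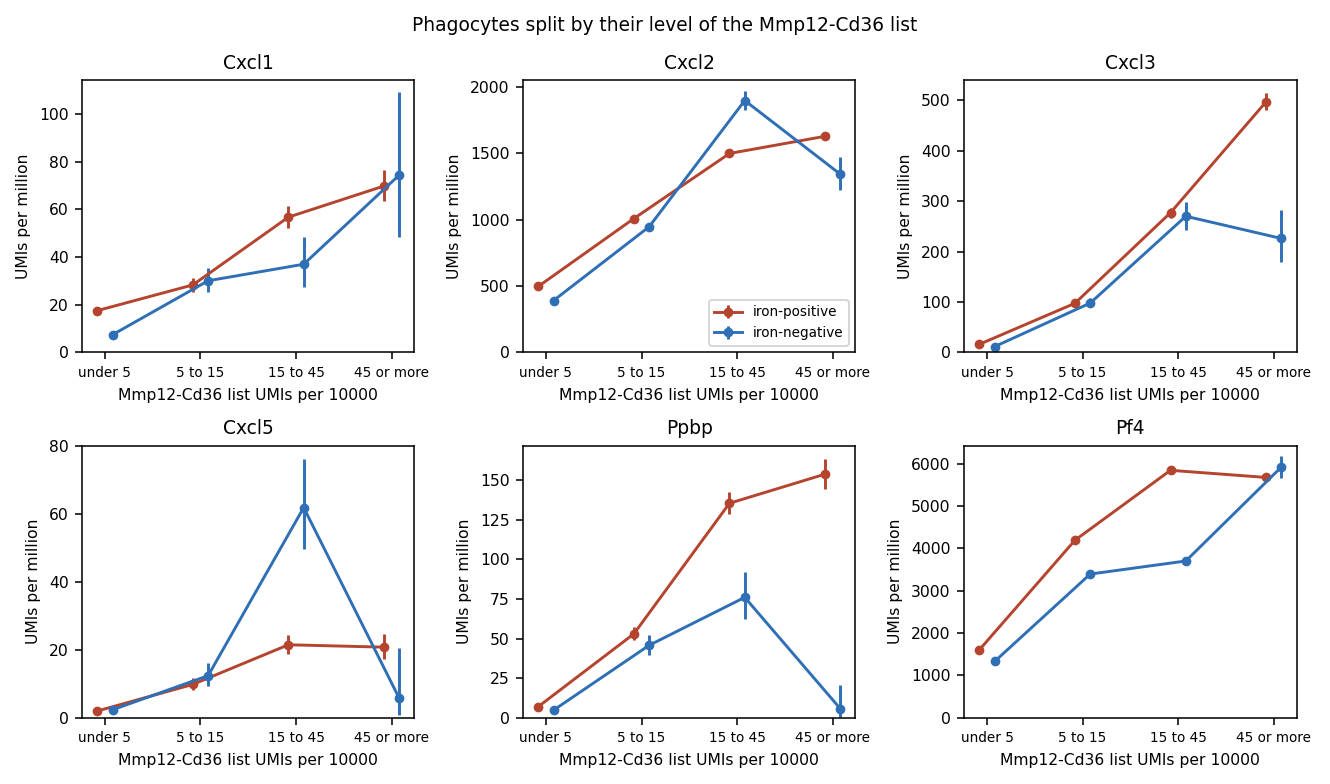
Level of each gene, in CPM, in phagocytes binned by their UMIs of the Mmp12-Cd36 list per 10000 UMIs, with exact 95% counting intervals, for the iron-positive and the iron-negative library. Cxcl3 rises along the bins in both libraries to 277 and 270.1 CPM in the bin of 15 to 45, and the highest iron-negative bin rests on 31 cells.

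Of the genes known to induce or limit these chemokines, those at 10 CPM or more in phagocytes stayed within 1.5-fold between the fractions. Few genes passed that size. Of all 7718 genes at that level, 2.38% were at least 1.5-fold higher and 0.713% at least 1.5-fold lower. Counts of 0 in lists this short are near those shares. Of 9 inducing cytokines, 4 reached 10 CPM in phagocytes and 0 passed 1.5-fold in either direction. Il1b, which encodes interleukin-1 beta, stood at 569 CPM in iron-positive against 615 CPM in iron-negative phagocytes, Tnf at 29.4 against 30.1 CPM, Osm, for oncostatin M, at 132 against 108 CPM, and Il1a at 13.6 against 9.42 CPM (1.44-fold, 1.33 to 1.56). Il6 stayed below 10 CPM, at 3.20 against 0.738 CPM (4.33-fold, 3.42 to 5.54). All 10 genes of NF-kB feedback and mRNA decay were measured and 0 passed 1.5-fold, with a median log2 ratio of -0.15. Nfkbia, the inhibitor that NF-kB induces, stood at 265 against 262 CPM, Tnfaip3 at 91.1 against 91.9 CPM, Nfkbiz, an atypical inhibitor, at 67.7 against 67.8 CPM, and Zc3h12a, an RNase that degrades inflammatory mRNAs, at 81.9 against 106 CPM (ratio 0.774). All 6 stress-linked regulators were measured (Hif1a, Atf3, Atf4, Ddit3, Bhlhe40 and Cebpb), 0 passed 1.5-fold, and their median log2 ratio was 0.01.

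Proteases known to cut CXC chemokines did differ. Of the 7 listed, 4 reached 10 CPM and all 4 were at least 1.5-fold higher in iron-positive phagocytes, against 2.38% of the 7718 genes at that level. The list was chosen with earlier results of these data known. Mmp8 was 18.1-fold higher (31.3 against 1.73 CPM), Mmp12 13.0-fold (670 against 51.6 CPM), Mmp13 1.90-fold (124 against 65.0 CPM) and Mmp9 1.85-fold (99.3 against 53.6 CPM). Mmp8 is on the neutrophil list and so had a part in the gating of cell classes. Mmp12 and Mmp9 are markers of states, which were set within the phagocyte gate. The Mmp12-Cd36 state made up 13.0% of iron-positive and 0.647% of iron-negative phagocytes, and its part in these ratios was not tested. Srgn, whose product serglycin binds Pf4 in platelet granules, was 1.13-fold higher (1403 against 1239 CPM). Of 9 other CXC chemokine genes, 4 were measured and 0 passed 1.5-fold, a count near the shares over all genes. Cxcl9 stood at 1159 against 1477 CPM and Cxcl10 at 254 against 246 CPM, both ligands of Cxcr3 that interferon induces. Cxcl16, a scavenger receptor and chemokine in 1 protein, stood at 688 against 827 CPM and Cxcl14 at 16.8 against 18.9 CPM.

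Likeness of pattern was measured as Pearson's r of log2(CPM + 1) over 31 points, each a gate of 1 library with at least 50 cells, among 4983 genes. Points of 1 library share their depth and free RNA, and the states share cells' lineage, so r is a description. Cxcl1 was most like Rbfox2 (0.943), Fosl1 (0.938) and Frmd6 (0.927). Cxcl5 was most like Bsg (0.829), Prelid2 (0.789) and Flrt2 (0.788). Cxcl2 was most like Sgms2 (0.816), Ero1l (0.815) and Ifitm6 (0.814), and Cxcl3 like Ero1l (0.898), Prdx6 (0.894) and Sgms2 (0.877), so that Ero1l and Sgms2 were named for both. Ppbp was most like Iqsec1 (0.901), Hilpda (0.866) and Bnip3 (0.864). Pf4 was most like Osbpl8 (0.940), the ferritin pseudogene Ftl1-ps1 (0.936), whose counts are uncertain because of near copies, and the chemokine gene Ccl9 (0.934). Among the members themselves, over the 28 phagocyte points, r was 0.901 for Cxcl3 with Ppbp, 0.876 for Ppbp with Pf4 and 0.851 for Cxcl2 with Cxcl3, and lowest for Cxcl2 with Pf4 (0.633). The 31 points add endothelial-like cells and both mesenchymal sets, all of the iron-positive library. Over these 31 the r of Cxcl1 was -0.371 with Pf4, 0.0736 with Ppbp, 0.161 with Cxcl2, 0.266 with Cxcl3 and 0.557 with Cxcl5.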

How the data were processed

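The data were 2 single-cell libraries of a mouse tumour, 1 from the iron-positive and 1 from the iron-negative fraction of a magnetic column, with 129921053 and 132796517 UMIs. The deposited values are raw UMI counts per gene and barcode. The authors made them with Cell Ranger 3.1.0 on mm10 per the submitters' processing notes, whereas the deposited file headers give version 5.0.0. The sources used here do not name the gene annotation behind the counts. Members and lists were chosen with earlier results of these data known, and the gating rule was written after the data were seen.

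Cells with at least 200 genes and at most 15% mitochondrial UMIs were kept. A marker counted as present when its UMIs exceeded, at a Poisson p of 0.05, those that 10% free RNA of the library's profile would give. A cell took the class with the most markers present, at least 3, if the next class had no more than 0.5 of that number (among stromal classes, if it had fewer). Phagocytes took the state with the highest standardized marker score, if at least 1 with 3 UMIs of the list. Doublets were not called. UMIs were summed per library and gate and given as counts per 1000000 UMIs of the gate (CPM), with exact Poisson intervals for levels, exact Clopper-Pearson intervals for shares and exact conditional binomial intervals for ratios, all at 95%. Log2 ratios added 0.5 counts to each library. A gene that reached 10 CPM in 1 of the libraries or both was called measured, and a difference of 1.5-fold was the size named. With 1 library per fraction no test was made. A count of 0 was given the limit of 3 counts. Named genes were the members, the genes of fixed lists, and the 3 genes most like each member. Thinning drew 1000 UMIs per cell, or 5000 for pairs of genes. Gene positions came from GENCODE and promoters from RefSeq. The steps were tested on simulated data and run with scipy 1.17.1, numpy 2.4.6, pandas 2.3.3 and matplotlib 3.10.9 under Python 3.11.15. The alternatives tried were other cell filters, scaling, thinning, subtraction of free RNA, equal weights for states, a stricter gate and removal of the cells with the most UMIs.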

Additional observations from a re-analysis of the deposited data

Results flagged for a closer look

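For 3 members the ratio of iron-positive over iron-negative phagocytes was at least 1.5-fold above 1 in a state and at least 1.5-fold below 1 in another, with counting intervals that leave out 1. Cxcl2 and Pf4 also had intervals on both sides of 1, at smaller sizes. The differences between states were not tested, since each state has 1 library per fraction.

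Cxcl1 had a ratio of 4.33 (2.88 to 6.69) in the Il1r2-Ifitm1 state, from 107 iron-positive and 31 iron-negative UMIs. Of the 107 UMIs 25 lay in 1 cell, and without the richest cell of each library that ratio was 3.81 (2.44 to 6.12). The Cxcl1 levels there were 16.2 (iron-positive) and 3.73 CPM (iron-negative), below the 17.6 and 4.08 CPM that 10% of free RNA would give. In the Ly6c2-Plac8 state the Cxcl1 ratio was 0.514 (0.336 to 0.769), from 34 and 91 UMIs. The iron-positive level there also lay below 17.6 CPM, whereas the iron-negative level lay above 4.08 CPM. The part of free RNA in these ratios was not tested. Ppbp had a ratio of 12.7 (7.32 to 24.0) in the heat shock state, from 127 and 14 UMIs, and of 0.405 (0.207 to 0.741) in the cycling state, from 14 and 52 UMIs. Of those 52 UMIs 26 lay in 1 cell, and without the richest cell of each library the cycling ratio was 0.578 (0.249 to 1.24). Cxcl5 had a ratio of 2.72 (1.64 to 4.60) in phagocytes with no leading state, from 48 and 25 UMIs, and of 0.204 (0.0961 to 0.421) in the Cd209f-Cd163-Lyve1 state, from 14 and 21 UMIs. Of the 48 UMIs 23 lay in 1 cell, and without the richest cells that ratio was 1.61 (0.870 to 2.99).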

How the results depend on the processing

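No paired analysis was possible because each fraction has 1 library. Phagocyte log2 ratios, iron-positive to iron-negative, were 1.64 for Cxcl1, 0.83 for Cxcl2, 2.34 for Cxcl3, 0.98 for Cxcl5, 2.44 for Ppbp and 0.93 for Pf4. Over 12 alternatives they ranged over 0.53 to 1.73, 0.34 to 0.93, 0.94 to 2.44, -0.77 to 1.12, 1.014 to 2.56 and 0.27 to 1.03 in the same order, and the direction turned for Cxcl5 alone. With states weighted equally the values were 0.83, 0.34, 0.94, -0.77, 1.014 and 0.27, and 3 measured members rather than 5 were at least 1.5-fold higher. Without the Mmp12-Cd36 state, an alternative added after seeing the data, they were 1.34, 0.65, 1.69, 0.63, 1.75 and 0.66. Median-ratio scaling, which shifted the log2 scale factor by -0.09 and so raised every log2 ratio, gave 0.93 for Cxcl2, 2.43 for Cxcl3 and 1.03 for Pf4. Thinning to 1000 UMIs gave 0.76 for Cxcl2, 2.21 for Cxcl3, 0.11 for Cxcl5, 2.18 for Ppbp and 0.85 for Pf4. Subtracting 10% free RNA gave 1.05 for Cxcl1 and 0.96 for Pf4, and subtracting the share seen in T or NK-like cells, added after seeing the data, gave 0.53 for Cxcl1, 0.76 for Cxcl5 and 0.97 for Pf4. A stricter gate gave 0.81 for Cxcl2 and 2.20 for Cxcl3. Leaving out the cells with the most UMIs gave 0.91 for Cxcl2, 2.44 for Cxcl3, 2.56 for Ppbp and 0.89 for Pf4. Among the phagocyte states, endothelial-like cells and the 2 mesenchymal sets with at least 50 cells, in the one where each gene was highest in the iron-positive library, thinning gave 1101 CPM for Cxcl1 (1376 without it), 1962 for Cxcl2 (1690), 441 for Cxcl3 (323) and 182 for Ppbp (141), and subtracting 10% free RNA gave 1619 for Cxcl2 and 6595 for Pf4 (6802). Of 7718 genes at 10 CPM or more in phagocytes, 184 (2.38%) were at least 1.5-fold higher and 55 (0.713%) lower. With a minimum of 50 CPM these were 72 (2.25%) and 24 (0.749%) of 3206 genes. With a minimum of 1 UMI they were 4020 (19.7%) and 2249 (11.01%) of 20423 genes. The shares at 50 CPM were thus close to those at 10 CPM, whereas those at 1 UMI were larger. Other limits of mitochondrial share or gene number, and leaving out the shared barcodes or the richest cell of each gene, moved no log2 ratio past its counting interval. The cause of the shifts in log2 ratios and levels was not tested.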
